A study of Mus musculus with 12 samples.

Results

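The genes described here are the replication-dependent histone genes of the mouse, taken as every gene symbol in the count tables that starts with Hist1h, Hist2h, Hist3h or Hist4h. The rule found 68 of the 23420 genes listed. By symbol, 6 are of the linker histone class H1, 18 of H2A, 19 of H2B, 12 of H3 and 13 of H4. The 19 of H2B include the pseudogene Hist3h2bb-ps. Of the 68, 54 lie in the large Hist1 cluster on chromosome 13 and 10 in Hist2 on chromosome 3. In Hist3 on chromosome 11 lie 3, and 1, Hist4h4, lies on chromosome 6. RNA was sequenced from whole embryos at embryonic day 12.5 in 2 lines. In the Carm1 line (strain C57BL/6), 3 embryos homozygous for the null allele Carm1 tm1Mtb, which lacks exons 2 and 3, were compared with 3 wild-type embryos. In the Pax3 line (mixed strain), 3 embryos homozygous for the Splotch allele Sp2H were compared with 3 wild-type embryos of that line. All embryos came from intercrosses of heterozygous mice, and each embryo gave 1 library of polyadenylated RNA. The homozygous groups are called KO (Carm1 line) and Sp2H (Pax3 line) below.

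Replication-dependent histone genes supply the histones that package newly copied DNA, and their mRNAs accumulate during S phase. These genes mostly have no introns, and their mRNAs are the only metazoan mRNAs that typically end without a poly(A) tail. The end is instead a short stem-loop in the 3′ untranslated region, bound by the stem-loop binding protein SLBP, after which the transcript is cleaved. A subset of these genes also makes longer, polyadenylated transcripts, mainly in cells that are leaving the cell cycle or have left it. CARM1 is an arginine methyltransferase that methylates histone H3 among other proteins, and PAX3 is a transcription factor of the dorsal neural tube, neural crest and muscle precursors. Because the libraries were made by poly(A) selection, a histone count here is a count of the RNA that was carried through that selection and not of all RNA from the gene.

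The stem-loop is shown first because it is the feature that sets the 3′ end of most of these transcripts. GENCODE M21 gene models on GRCm38, the same build as mm10, matched all 68 symbols. A stem-loop of 6 paired bases and a 4-base loop was found by its letters in the transcripts of 46 of them, against 0.102% of 58725 protein-coding transcripts of other genes. The 4 lines below give the stem-loops of genes that recur in the results, with both arms of the stem in capitals and the loop in lower case.
Hist3h2ba: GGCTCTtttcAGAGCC
Hist1h3c: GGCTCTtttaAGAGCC
Hist1h4i: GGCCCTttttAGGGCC
Hist1h4b: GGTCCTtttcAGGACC
Those of Hist3h2ba (chr11:58949349-58949364, + strand) and Hist1h3c (chr13:23745047-23745062, - strand) carry the arm GGCTCT, as did every match in the H1, H2A, H2B and H3 classes. All matches in the H4 class carried GGCCCT or GGTCCT instead, as in Hist1h4i (chr13:22040966-22040981, - strand). The form shown for Hist3h2ba was the most frequent, in 26 members. In 23 members the annotated transcript ran on for at least 100 bases past the stem-loop, in 23 it ended sooner, and in 22 no stem-loop was found in the annotated transcript.

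A list of 8 of the 68 genes as known to make transcripts with a poly(A) tail was written from general knowledge: Hist1h1c, Hist1h2ac, Hist1h2bc, Hist1h2be, Hist1h4i, Hist2h2be, Hist3h2a and Hist3h2ba. The list was not checked against a reference and may be incomplete, so every split below into these 8 and the other 60 rests on it. They are called the polyadenylated members for short. Of these, Hist1h1c, Hist1h2ac, Hist1h2be, Hist1h4i, Hist3h2a and Hist3h2ba were among the 23 whose annotated transcript runs past the stem-loop, and no stem-loop was found in the annotated transcripts of Hist1h2bc and Hist2h2be.

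The members took 0.0117 to 0.0232 percent of the counts of a library, that is 2386 to 5058 counts of 17183344 to 23518692. Only 12 members reached 100 counts in any library of the Carm1 line, and only 6 did in the Pax3 line. Levels are given as counts scaled to library size (CPM), with TMM factors computed within each line, and fold changes as log2 of homozygous over wild type with the standard error (SE). Per kilobase of the RefSeq gene, in wild-type embryos of the Carm1 line, Hist3h2ba was highest at 82.7 CPM per kb, followed by Hist3h2a at 71.5, Hist1h4i at 38.4, Hist1h1c at 22.7 and Hist1h3c at 16.1. In wild-type embryos of the Pax3 line Hist3h2ba and Hist3h2a had 74.7 and 63.9 CPM per kb, whereas Hist1h4i had 5.93. All other members with a single annotated transcript had less than Hist1h4b, which had 11.8 CPM per kb in the Carm1 line. These levels depend on the gene model, since Hist3h2ba and Hist3h2a are 462 and 508 bases long in RefSeq but 614 and 2146 bases in GENCODE, and the model used for counting is not given in the sources used here. Hist3h2a and Hist3h2ba were also the members with the highest counts, and both lie in the small Hist3 cluster.

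7 members had no count in any of the 12 libraries: Hist1h2aa, Hist1h2ba, Hist1h2ao, Hist1h2ap, Hist1h2bq, Hist1h2br and Hist2h2aa1. Hist1h2aa and Hist1h2ba are the testis forms of H2A and H2B. Of the other 5, 84.2 to 100 percent of the 150-base stretches of the annotated transcripts were also found in other annotated genes, so a read from such a stretch has more than 1 possible origin. A count of 0 allows up to 3 counts, or 0.128 to 0.175 CPM, depending on the library, for counting error only. Of all 68 members, 14 shared no 150-base stretch with another gene and 24 shared more than 50 percent of them, so the counts of the second kind depend on how reads with several positions were counted, which is not given in the sources used here.

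Promoter sequences are shown for 5 members that differed between groups in at least 1 line and are described below, 4 of them from the Carm1 line and Hist1h2bk from the Pax3 line, which shares its promoter window with the divergent gene Hist1h2ah. RefSeq promoters (GRCm38.p6) matched 62 of the 68 members. Each line gives the 150 bases before the annotated start, 5′ to 3′ on the strand of the gene, with matches to 4 known histone promoter motifs in capitals, as the motif or its reverse complement. No matches shown overlap each other. The motifs searched on both strands were the octamer ATTTGCAT, the CCAAT box, the TATA box TATAAA and the H1 box AAACACA.
Hist3h2ba: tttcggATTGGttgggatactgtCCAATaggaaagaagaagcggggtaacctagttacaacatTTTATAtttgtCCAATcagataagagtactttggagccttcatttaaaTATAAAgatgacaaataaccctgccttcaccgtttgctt
Hist3h2a: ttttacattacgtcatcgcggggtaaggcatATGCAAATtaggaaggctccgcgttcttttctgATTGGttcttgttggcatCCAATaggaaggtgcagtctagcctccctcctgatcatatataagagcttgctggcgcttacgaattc
Hist1h1c: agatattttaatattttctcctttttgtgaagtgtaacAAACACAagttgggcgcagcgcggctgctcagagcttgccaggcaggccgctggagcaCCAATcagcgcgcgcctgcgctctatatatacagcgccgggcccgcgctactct
Hist1h3c: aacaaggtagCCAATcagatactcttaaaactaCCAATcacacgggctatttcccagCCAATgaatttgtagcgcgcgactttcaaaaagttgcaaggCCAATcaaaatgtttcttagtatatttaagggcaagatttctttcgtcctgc
Hist1h2bk: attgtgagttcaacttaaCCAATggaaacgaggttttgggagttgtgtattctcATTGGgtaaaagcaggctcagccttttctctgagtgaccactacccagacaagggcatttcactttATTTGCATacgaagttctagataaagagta
They lie at chr11:58948761-58948910 (+), chr11:58954535-58954684 (+), chr13:23738657-23738806 (+), chr13:23745522-23745671 (-) and chr13:22035671-22035820 (+). Over the 250 bases before the start, the octamer was found in 7 of 18 H2A and 6 of 16 H2B promoters, in none of the H1, H3 and H4 promoters, and in 1.601% of all 32851 promoters. The CCAAT box was found in every H1, H2A and H2B promoter, in 8 of 10 H3 and 3 of 12 H4 promoters, and in 33.8% of all promoters. The H1 box was found in 5 of 6 H1 promoters and in 6.25% of all, and the TATA box in 12.4% of all promoters and in 4 of 6 H1, 7 of 18 H2A, 8 of 16 H2B, 4 of 10 H3 and 6 of 12 H4 promoters. In 10 pairs, each of an H2A and an H2B gene, the promoter windows overlap, so a motif there counts for both genes. Among the 5 shown, Hist3h2a and Hist1h2bk hold an octamer and Hist1h3c holds 4 CCAAT boxes. A match describes these letters and not the binding of a factor.

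Facts of the whole series that touch these values are as follows. Carm1 had a log2 fold change of -0.998 in KO embryos (adjusted p = 1.2e-15) and Pax3 of -0.43 in Sp2H embryos (adjusted p = 0.00142), from counts over whole genes. Marker genes of 8 tissues, 2 or 3 for each, were detected in all libraries, as whole embryos should hold them. In KO embryos all 3 hepatocyte markers (1217 to 1472 summed CPM in wild-type and 639 to 747 in KO embryos), all 3 skeletal muscle markers (367 to 433 and 271 to 279), both epidermis markers, 2 of 3 heart, 2 of 3 neuron and 1 of 3 cartilage markers were lower, 1 of 3 erythroid markers was higher, and all 3 neural progenitor markers were higher (509 to 563 and 703 to 745). In Sp2H embryos all 3 skeletal muscle markers were lower (207 to 260 summed CPM in wild-type and 110 to 125 in Sp2H embryos), as were 1 of 3 hepatocyte markers (891 to 1089 and 747 to 823) and 1 of 3 neuron markers. Higher there were 2 of 3 heart markers (118 to 125 and 147 to 183) and 1 of 3 neural progenitor markers, and the summed epidermis markers did not overlap (60.01 to 80.7 and 84.0 to 101), although neither gene passed the test. The part of these tissues in the histone results below was not tested, and in whole embryos fewer cells of a type and less RNA per cell cannot be told apart. Counts on 4 Y-linked genes exceeded 100 in wild-type replicate 3 of the Carm1 line, and in wild-type replicates 2 and 3 and Sp2H replicate 3 of the Pax3 line.

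In the Carm1 line, the question was whether histone transcripts differ in embryos without functional CARM1. Of the 8 polyadenylated members, 5 were lower in KO embryos (Hist3h2ba, Hist3h2a, Hist1h1c, Hist1h2bc and Hist2h2be), 3 did not pass the test (Hist1h2ac, Hist1h4i and Hist1h2be) and none was higher, also at an unadjusted p below 0.05 or by DESeq2. The list was written with earlier results of these data known, so its direction is not independent evidence. Of the 60 other members, 41 passed the filter on low counts, and 2 of those differed, Hist1h3c and Hist1h2ai, both higher in KO embryos. Over all genes tested in this line, 13.3% differed at an adjusted p below 0.05, 5.49% being higher and 7.83% lower in KO embryos (edgeR quasi-likelihood test, Benjamini-Hochberg adjustment over 15811 genes). The members as a whole, 7 of the 49 tested or 14.3 percent, were therefore near the share of all genes. The 2 groups did not overlap in 9 of the 49, 3 with KO above and 6 with KO below, against 30.0% of all genes tested. The median log2 fold change of those 49 was 0.055, against 0.0014 over all genes. It was -0.21 without KO replicate 3.

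Hist3h2ba, which codes for an H2B, lies on chromosome 11, 58948920 to 58949533, + strand. It had 35.9, 38.2 and 40.5 CPM in the 3 wild-type embryos and 20.6, 19.2 and 19.4 CPM in the 3 KO embryos. Every KO embryo was thus far below every wild-type embryo, and the log2 fold change was -0.95 (SE 0.073, adjusted p = 2.9e-11 by edgeR's quasi-likelihood test). Its neighbour Hist3h2a, an H2A gene on the same strand (chromosome 11, 58954685 to 58956830, + strand), had 33.9, 37.3 and 37.8 CPM in wild-type and 28.5, 26.4 and 31.1 CPM in KO embryos. The groups did not overlap here either, but the fall was smaller, at a log2 fold change of -0.35 (SE 0.072, adjusted p = 9.6e-04). The third gene of that cluster, the pseudogene Hist3h2bb-ps, had 0.430 to 0.474 CPM in wild-type and 0.168 to 0.412 CPM in KO embryos and did not pass the filter.

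Hist1h1c, the gene of the linker histone H1.2, had 16.2, 16.04 and 17.1 CPM in wild-type and 11.8, 11.4 and 12.02 CPM in KO embryos (chromosome 13, 23738808 to 23740367, + strand). The values within each group were close together and the groups lay well apart, with a log2 fold change of -0.49 (SE 0.095, adjusted p = 5.1e-04). Hist1h2bc, an H2B gene (chromosome 13, 23684199 to 23692908, + strand), had 9.37, 10.4 and 9.90 CPM in wild-type and 5.32, 6.89 and 6.66 CPM in KO embryos. Again no KO embryo reached the lowest wild-type embryo, and the log2 fold change was -0.66 (SE 0.13, adjusted p = 5.7e-04). Hist2h2be, the H2B gene of the Hist2 cluster (chromosome 3, 96221119 to 96223738, + strand), had 14.6, 16.3 and 17.3 CPM in wild-type and 10.04, 12.8 and 11.3 CPM in KO embryos. Its groups did not overlap, and it fell by a similar amount, with a log2 fold change of -0.50 (SE 0.10, adjusted p = 0.00103).

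The remaining polyadenylated members did not pass the test. Hist1h2ac, an H2A gene divergent to Hist1h2bc, had 1.72, 1.29 and 1.02 CPM in wild-type and 0.768, 0.616 and 0.589 CPM in KO embryos. All KO embryos were below all wild-type embryos, but with 14, 11 and 10 counts in the KO libraries the SE was 0.36 for a log2 fold change of -1.003, and the adjusted p was 0.0594. For Hist1h4i, an H4 gene, wild-type embryos had 15.1 to 15.95 CPM and KO embryos 12.1 to 16.1 CPM, with KO replicate 1 above every wild-type embryo (adjusted p = 0.332). For Hist1h2be, an H2B gene whose annotated transcripts overlap the 3′ end of Hist1h1e on the same strand, wild-type embryos had 0.949 to 1.80 CPM and KO embryos 0.728 to 1.43 CPM (adjusted p = 0.692). At summed levels the hepatocyte, skeletal muscle, epidermis, heart and neuron markers were also lower in every KO than in every wild-type embryo. Those of neural progenitors were higher in every KO embryo, and those of cartilage and erythroid cells overlapped. In Sp2H embryos the summed hepatocyte and skeletal muscle markers were lower too, without overlap. Those of heart and epidermis were higher in every Sp2H embryo, and those of neurons overlapped. The summed polyadenylated members overlapped there, with 86.2 to 107 CPM in wild-type and 107 to 121 CPM in Sp2H embryos. The part of these tissues was not tested. None of the 150-base stretches of Hist3h2ba, Hist1h1c and Hist2h2be occurs in another gene, against 28.04 percent of those of Hist3h2a and 17.4 percent of those of Hist1h2bc. The calls of the 5 that fell held under each of the 18 alternatives in processing, including a term for the level of Rn45s and a term for Y-linked counts. The term for Y-linked counts marks wild-type replicate 3 alone in this line, so it nearly repeats the fit without that library.

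**Figure D1:**
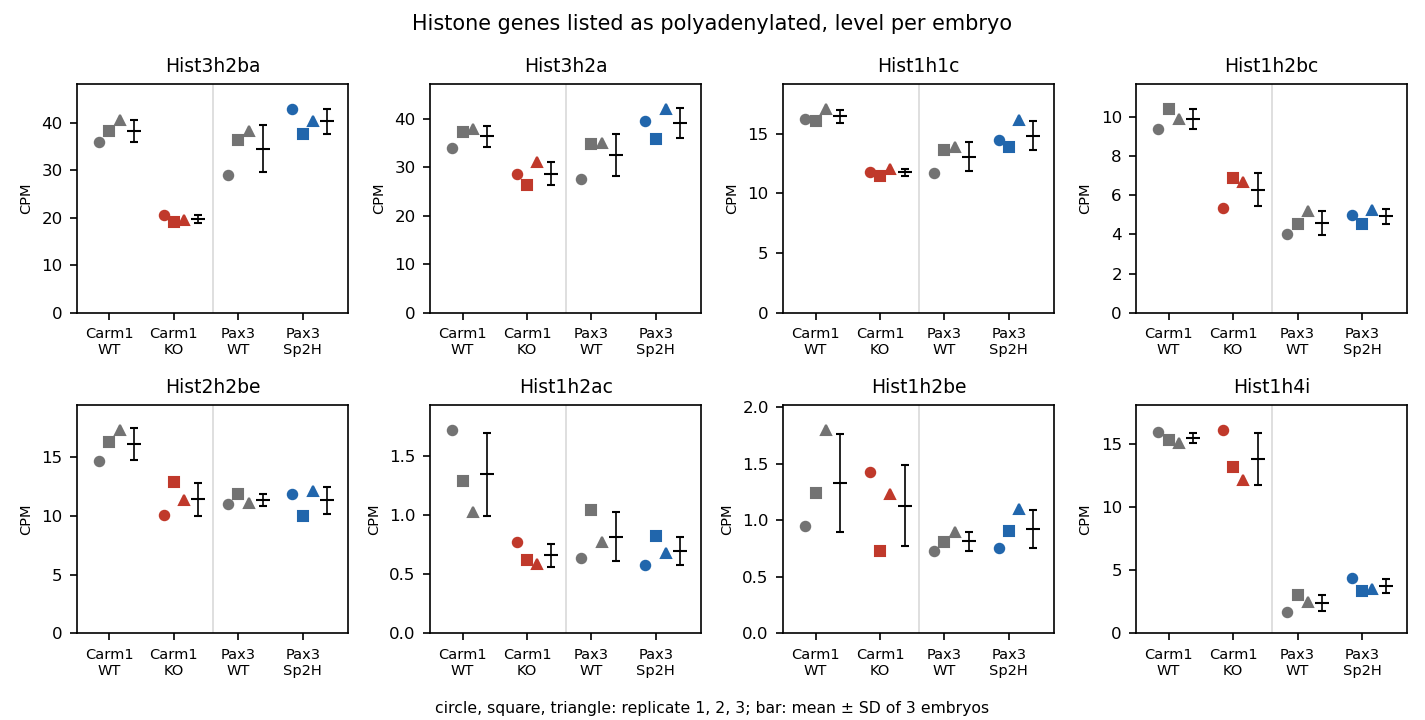
Level (CPM, library size scaled by TMM within each line) of the 8 histone genes listed as polyadenylated in each embryo, by line and genotype; symbols mark replicates 1 to 3, and bars the mean ± SD of 3 embryos. Hist3h2ba, Hist3h2a, Hist1h1c, Hist1h2bc, Hist2h2be and Hist1h2ac lie lower in every Carm1 KO embryo than in every wild-type embryo of that line, and Hist1h4i lies between 1.71 and 4.43 CPM in the Pax3 line against 12.1 to 16.1 CPM in the Carm1 line.

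The H3 gene Hist1h3c and the H2A gene Hist1h2ai rose in KO embryos. Hist1h3c had 8.89, 7.70 and 6.53 CPM in wild-type and 9.88, 11.5 and 10.3 CPM in KO embryos, each KO embryo being above each wild-type embryo. The log2 fold change was 0.46 (SE 0.13, adjusted p = 0.0120), and the call was lost under 3 of 18 alternatives: without KO replicate 2 (adjusted p = 0.0915), without wild-type replicate 3 (0.0702) and with the term for Y-linked counts (0.0753). The last 2 of these are nearly the same fit, since the term marks wild-type replicate 3 alone in this line. Hist1h2ai had 2.79, 2.15 and 2.73 CPM in wild-type and 4.01, 3.697 and 3.83 CPM in KO embryos, without overlap (log2 fold change 0.60, SE 0.20, adjusted p = 0.0409). The call was lost under 9 of 18 alternatives, among them without KO replicate 1, 2 or 3 (adjusted p = 0.131, 0.0848 and 0.101), without wild-type replicate 2 (0.190), with the replicate number as a block (0.0603) and by DESeq2 (0.125), and 86.1 percent of its 150-base stretches also occur in other genes.

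The other members with the highest level in their class did not pass the test in the Carm1 line. Hist1h2ae, an H2A gene, had 4.26 to 5.99 CPM in wild-type and 5.71 to 6.97 CPM in KO embryos (adjusted p = 0.225). Hist1h1e, the gene of H1.4, had 3.95 to 4.98 and 3.02 to 7.19 CPM (adjusted p = 0.834), with KO replicate 3 far above the other 2 KO embryos. Hist1h3h, an H3 gene, and Hist1h4b, an H4 gene, had adjusted p values of 0.472 and 0.898. By class, 1 of 5 H1 genes tested, 1 of 11 H2A and 3 of 12 H2B genes were lower in KO embryos, 1 H2A gene and 1 of 11 H3 genes were higher, and of 10 H4 genes none differed by edgeR at the threshold, 1 did at an unadjusted p below 0.05, and none did by DESeq2. The 4 H1 genes other than Hist1h1c that were tested had log2 fold changes of -0.26 to 0.11. By the annotated 3′ end, 3 of 20 members with a long end and 2 of 14 without a stem-loop were lower, and the median log2 fold change was -0.060 for long ends, -0.12 where no stem-loop was found, and 0.12 for the 15 with short ends.

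In the Pax3 line, the same comparison was made for embryos without functional PAX3. Here 7 of the 41 members tested differed, 6 being higher in Sp2H embryos (Hist1h3c, Hist1h2an, Hist1h2bk, Hist1h2ag, Hist1h4i and Hist3h2a) and 1 lower (Hist2h4). That is 17.1 percent, below the 24.5% of all 15724 genes tested, of which 14.0% were higher and 10.5% lower in Sp2H embryos. The groups did not overlap in 9 of the 41, 6 with Sp2H above and 3 with Sp2H below, against 39.6% of all genes. The median log2 fold change of the 41 was 0.18, against -0.0026 over all genes, and it turned to -0.049 with offsets for length and GC content. Wild-type replicate 1 was the lowest wild-type embryo for 29 of the 41 members. Without it 4 members were called, 3 of them among the 7, and without Sp2H replicate 1 also 4, all among the 7. With those offsets 4 were called, 2 higher and 2 lower. Sp2H embryos carried less Rn45s than every wild-type embryo of the line, and genotype and Rn45s level cannot be told apart there.

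Hist1h3c rose in this line as well. It had 1.81, 1.33 and 1.29 CPM in wild-type and 3.17, 3.14 and 3.27 CPM in Sp2H embryos, so that the groups lay far apart, with a log2 fold change of 1.11 (SE 0.22, adjusted p = 5.8e-04). The call held under each of the 16 alternatives run in this line. Hist1h2an, an H2A gene, had 9, 5 and 9 counts in the wild-type and 49, 22 and 24 counts in the Sp2H libraries. The highest count, in Sp2H replicate 1, was well above the other 2, and every Sp2H embryo was above every wild-type embryo (log2 fold change 1.88, SE 0.40, adjusted p = 0.00119). Of its 150-base stretches, 72.5 percent also occur in other genes. It did not pass the filter in the Carm1 line, where no embryo had more than 0.825 CPM.

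Hist1h2bk, Hist1h4i and Hist1h2ag are neighbours within the Hist1 cluster, on chromosome 13 between 22035870 and 22042944. Hist1h2bk, an H2B gene, had 0.586, 1.80 and 1.504 CPM in wild-type and 2.77, 2.37 and 2.46 CPM in Sp2H embryos (log2 fold change 0.98, SE 0.28, adjusted p = 0.0118). Hist1h4i had 1.71, 3.01 and 2.45 CPM in wild-type and 4.43, 3.37 and 3.48 CPM in Sp2H embryos (log2 fold change 0.66, SE 0.21, adjusted p = 0.0210). The groups did not overlap for either gene, and for both wild-type replicate 1 was the lowest embryo. Hist1h2ag, an H2A gene, had 8, 24 and 12 counts in the wild-type and 51, 46 and 28 counts in the Sp2H libraries, and after scaling the groups overlapped (log2 fold change 1.33, SE 0.37, adjusted p = 0.0117). All 3 calls were lost without wild-type replicate 1, at adjusted p values of 0.0895, 0.128 and 0.0692, and with length and GC offsets. That of Hist1h4i was also lost without Sp2H replicate 1 (0.127) and by DESeq2 (0.0518), and that of Hist1h2ag without Sp2H replicate 1 (0.0600), Sp2H replicate 2 (0.0548) or wild-type replicate 3 (0.0658). Of the 150-base stretches of Hist1h2bk and Hist1h2ag, 60.9 and 65.5 percent also occur in other genes, against 2.08 percent of those of Hist1h4i.

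The other 2 histone genes of this stretch did not pass the test. Hist1h2bj, the H2B gene divergent to Hist1h2ag, had 0.0976, 1.16 and 0.558 CPM in wild-type and 0.939, 1.23 and 0.976 CPM in Sp2H embryos (adjusted p = 0.183). Hist1h2ah, the H2A gene that shares the promoter window of Hist1h2bk printed above, had 0.634, 0.811 and 1.37 CPM in wild-type and 0.447, 0.592 and 0.424 CPM in Sp2H embryos, a log2 fold change of -0.97 (SE 0.39, adjusted p = 0.0699). The members of this divergent pair thus lay on opposite sides of wild type, although Hist1h2ah did not reach the threshold and had 10, 13 and 10 counts in the Sp2H libraries. Of the 150-base stretches of Hist1h2ah, 84.8 percent also occur in other genes, against 60.9 percent for Hist1h2bk. The counts of both therefore depend on how reads with several positions were counted.

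Hist3h2a, which fell in the Carm1 line, had 27.6, 34.9 and 35.0 CPM in wild-type and 39.6, 35.9 and 42.0 CPM in Sp2H embryos. The groups did not overlap, but the lowest Sp2H embryo was close to the highest wild-type embryo (log2 fold change 0.27, SE 0.090, adjusted p = 0.0291). The call was lost without Sp2H replicate 1 (0.0795) or 3 (0.150), without wild-type replicate 1 (0.172) and with length and GC offsets (0.0656). Hist2h4, an H4 gene of the Hist2 cluster (chromosome 3, 96261682 to 96263311, - strand), was the only member that was lower in Sp2H embryos by the test. It had 20, 21 and 25 counts in the wild-type and 3, 11 and 8 counts in the Sp2H libraries, with no overlap (log2 fold change -1.72, SE 0.41, adjusted p = 0.00320). Of the polyadenylated members, Hist3h2ba had 28.9 to 38.2 CPM in wild-type and 37.5 to 42.9 CPM in Sp2H embryos (adjusted p = 0.0731) and passed the threshold under 4 of 16 alternatives. Hist1h1c, Hist1h2bc, Hist2h2be, Hist1h2ac and Hist1h2be had log2 fold changes of -0.22 to 0.19, with adjusted p values of 0.195 or more. Among the members with the highest level in their class, Hist1h2ae, Hist1h1e, Hist1h3h and Hist1h4b had positive log2 fold changes, of 0.27 to 0.50, and none passed the threshold (adjusted p from 0.0705 to 0.531). The median log2 fold change was 0.50 for the 11 members with short annotated ends and 0.067 for the 17 with long ends. It was 0.0023 for the 13 in which no stem-loop was found. These 3 medians were not taken with length and GC offsets, with which the median of all members tested turned to -0.049.

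**Figure D2:**
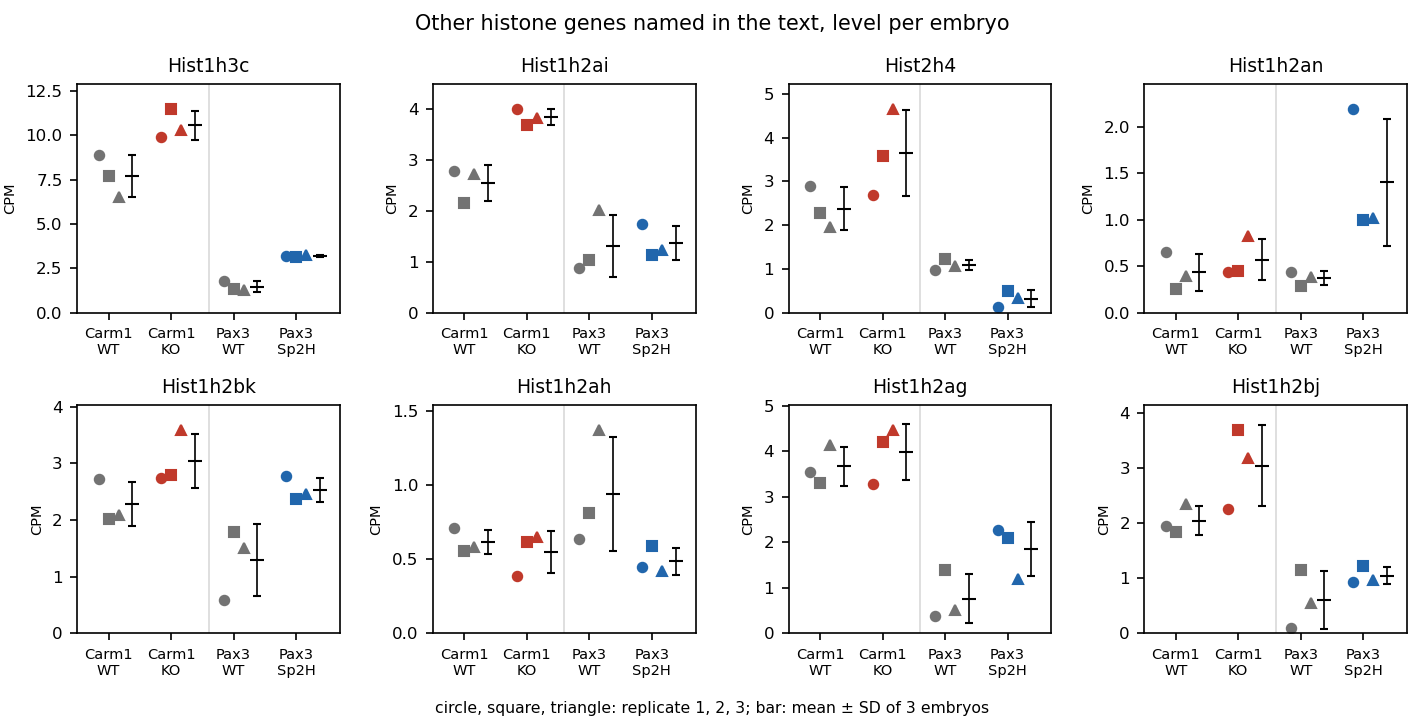
Level (CPM, library size scaled by TMM within each line) of 8 further histone genes in each embryo, drawn as for the polyadenylated members. Hist1h3c lies higher in every KO and every Sp2H embryo than in the wild-type embryos of its line, and Hist2h4 lies between 0.134 and 0.501 CPM in Sp2H embryos against 0.976 to 1.22 CPM in their wild-type embryos.

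The difference between the 2 lines was tested as an interaction in 1 fit of all 12 libraries, in which 55 members passed the filter. The change in KO embryos differed from the change in Sp2H embryos for 8 of these 55, against 19.1% of all 16292 genes tested. For 7 of the 8 the change was lower in the Carm1 line: Hist3h2ba, Hist3h2a, Hist1h1c, Hist1h2bc, Hist2h2be, Hist1h4i and Hist1h2ag. The difference in log2 fold change was -1.17 for Hist3h2ba (SE 0.12, adjusted p = 3.1e-08) and -0.66 for Hist1h1c (SE 0.14, adjusted p = 8.9e-04). It had the opposite sign for Hist2h4, at 2.35 (SE 0.46, adjusted p = 4.7e-04), which had 2.91, 2.28 and 1.95 CPM in wild-type and 2.69, 3.58 and 4.65 CPM in KO embryos of the Carm1 line (adjusted p = 0.0617). For Hist1h3c, which rose in both lines, the difference did not pass the threshold, at -0.64 (SE 0.24, adjusted p = 0.0551). The lines differ in strain, in the laboratory that kept the mice and in the level of Rn45s along with the mutated gene. The parts of these, and of any difference in the making of the libraries, cannot be told apart.

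**Figure D3:**
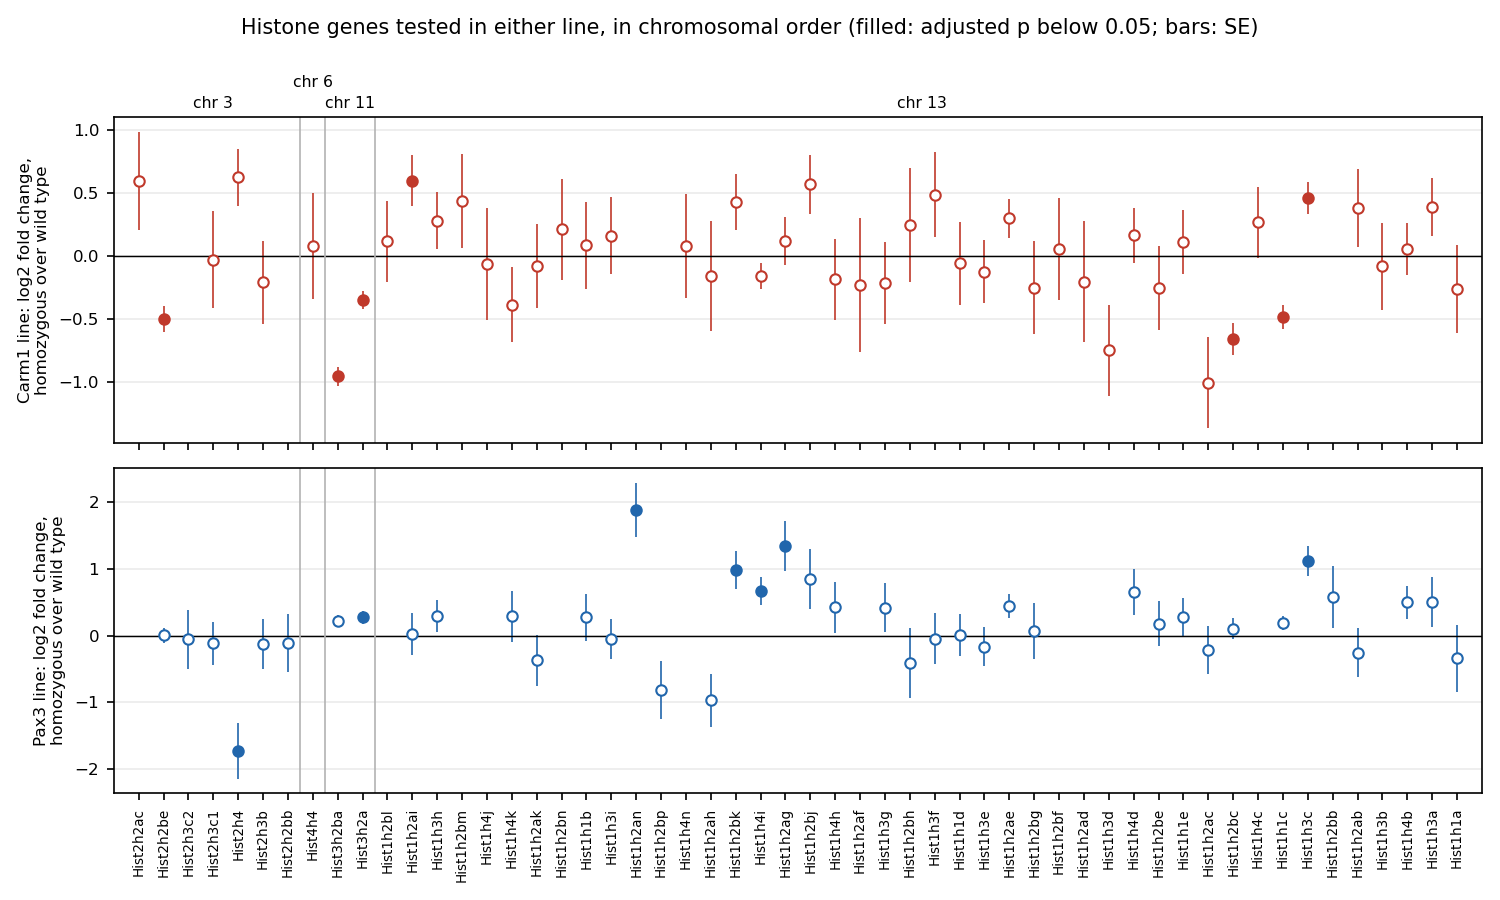
Log2 fold change of homozygous over wild-type embryos (points, with SE bars) for each histone gene tested in either line, in the order of its position on chromosomes 3, 6, 11 and 13; the vertical scale differs between the Carm1 line (top) and the Pax3 line (bottom), and filled points have an adjusted p below 0.05. In the Carm1 line the 5 filled points below 0 are Hist2h2be, Hist3h2ba, Hist3h2a, Hist1h2bc and Hist1h1c, and in the Pax3 line Hist1h2bk, Hist1h4i and Hist1h2ag stand next to each other above 0.

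Summed over genes, reads that could belong to several near-identical copies are split less between rows. If such reads were dropped in counting, they are missing from the sums as well, and their handling is not given in the sources used here. The 8 polyadenylated members together had 129, 136 and 140 CPM in wild-type and 94.6, 91.2 and 94.5 CPM in KO embryos. The groups did not overlap, and the 3 KO embryos were within a few CPM of each other. The other 60 members together had 107, 81.3 and 78.1 CPM in wild-type and 85.2, 90.6 and 117 CPM in KO embryos. Their groups overlapped, and wild-type replicate 1 and KO replicate 3 stood above the rest of their groups. The list of 8 was written with earlier results of these data known, so the contrast between these sums is not independent evidence. Hist3h2ba alone had a mean of 38.2 CPM in wild-type and 19.7 CPM in KO embryos. In the Pax3 line the 8 together had 86.2, 106 and 107 CPM in wild-type and 120, 107 and 121 CPM in Sp2H embryos. The other 60 had 30.2, 41.5 and 39.9 CPM in wild-type and 45.7, 46.8 and 41.3 CPM in Sp2H embryos there. Both sums overlapped, wild-type replicate 1 being the lowest embryo in each.

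By class, H2B genes summed to 73.6 to 79.7 CPM in wild-type and 49.5 to 54.9 CPM in KO embryos of the Carm1 line, with no overlap, and without the polyadenylated members to 10.2 to 12.7 and 12.2 to 16.2 CPM, with overlap. H3 genes, none of which is a polyadenylated member, summed to 30.8, 23.9 and 21.7 CPM in wild-type and 24.7, 27.4 and 33.2 CPM in KO embryos, and H4 genes summed to 45.4, 33.2 and 32.0 CPM in wild-type and 35.9, 31.8 and 38.9 CPM in KO embryos. In both classes the highest embryo of each group was again wild-type replicate 1 and KO replicate 3. The same libraries held the most Rn45s, the 45S pre-ribosomal RNA, which has no poly(A) tail: 65170, 44528 and 32547 CPM in wild-type and 32880, 38937 and 65023 CPM in KO embryos. With both of these libraries left out, 7 members were called in the Carm1 line, 6 of them among the 7 above and with all 5 falls of polyadenylated members included, and with a term for the Rn45s level 8 were called, including all 7. Rn45s had in the Pax3 line 7577, 17144 and 11161 CPM in wild-type and 3765, 3755 and 3802 CPM in Sp2H embryos, while H3 genes summed to 10.3 to 12.6 CPM in wild-type and 12.9 to 14.6 CPM in Sp2H embryos, and H4 genes to 6.49 to 10.02 and 10.6 to 11.3 CPM. Both sums were higher in every Sp2H than in every wild-type embryo, while Rn45s was lower in every one. Without the polyadenylated member Hist1h4i, H4 genes summed to 4.78 to 7.01 CPM in wild-type and 6.88 to 7.92 CPM in Sp2H embryos, with overlap. Hist1h3c alone had a mean of 1.48 CPM in wild-type and 3.19 CPM in Sp2H embryos, where the H3 sums had means of 11.7 and 13.6 CPM. The other RNAs made without a poly(A) tail summed to 76.3 to 80.5 CPM in wild-type and 100 to 117 CPM in Sp2H embryos, higher in every Sp2H embryo, and to 99.7 to 104 CPM in wild-type and 106 to 118 CPM in KO embryos of the Carm1 line, again without overlap. The part of these RNAs in the histone sums was not tested.

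**Figure D4:**
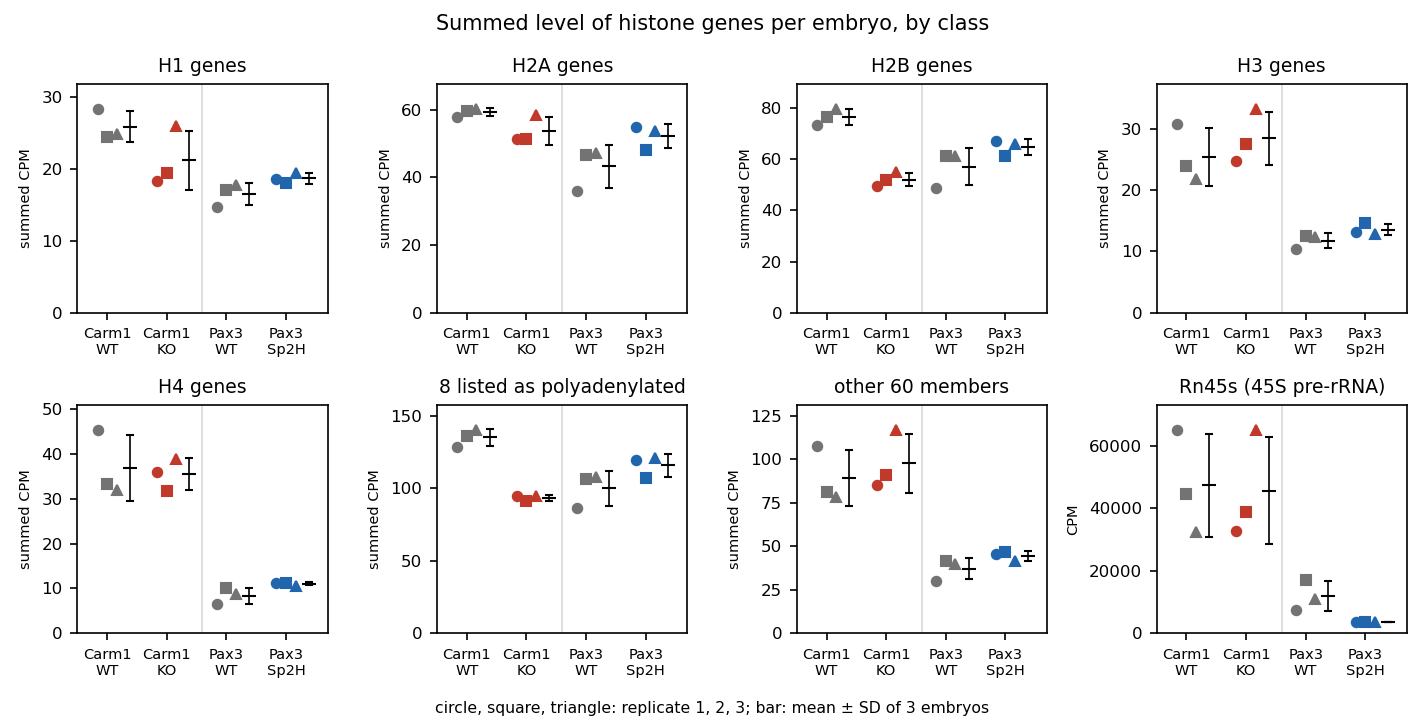
Summed CPM of the histone genes of each class, of the 8 polyadenylated members, of the other 60 members, and the CPM of Rn45s, in each embryo by line and genotype; symbols mark replicates 1 to 3, and bars the mean ± SD of 3 embryos. The sum of the 8 is lower in every Carm1 KO embryo than in every wild-type embryo of that line, and within the Carm1 line the embryos with the most Rn45s, wild-type replicate 1 and KO replicate 3, also have the highest H3 and H4 sums of their groups.

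Other genes of histone supply were read from hand-written lists. Where none of a list is said to be lower, none was at an unadjusted p below 0.05 by edgeR or by DESeq2 either. The shares called are to be read against the 13.3% of all genes in the Carm1 line and the 24.5% in the Pax3 line. For the genes of 3′ end processing and decay they were 9.09 and 40.9 percent in these lines, for the replication-independent histone genes 36.4 and 72.7 percent, for S phase and DNA replication 9.76 and 26.8 percent, for G2 and mitosis 12.5 and 37.5 percent, and for histone chaperones 21.4 and 7.14 percent. Those of S phase and DNA replication were near the share of all genes in both lines. Of 22 genes for the processing of histone 3′ ends and the decay of histone mRNA, 2 were higher in KO embryos and none lower in the Carm1 line: Casp8ap2 (log2 fold change 0.28, adjusted p = 8.9e-05), whose product FLASH takes part in 3′ end cleavage, and Zcchc11 (0.15, adjusted p = 0.0196), a uridylyltransferase. Among the same 22 genes 1 was higher and 8 lower in the Pax3 line. The lower ones included Npat (-0.34, adjusted p = 3.0e-04) and Zcchc11 (-0.27, adjusted p = 3.6e-04). Npat is on this list although it is an activator of histone gene transcription, so the shares called include it. Of 11 tested genes listed as replication-independent histone genes, mostly with polyadenylated mRNAs, 4 were higher and none lower in KO embryos. In Sp2H embryos 8 of them were higher and none lower. They included H1fx, a linker histone gene (0.21 in KO, adjusted p = 0.00241, and 0.46 in Sp2H embryos, adjusted p = 5.7e-07), H2afv (0.18 in KO embryos, adjusted p = 0.00775), which codes for a variant of H2A.Z, and H1f0 (0.42 in Sp2H embryos, adjusted p = 2.3e-05). Their medians were 0.080 and 0.29 on the log2 scale. With length and GC offsets, the Pax3 line gave 1 higher and 3 lower genes for the first of these lists and 6 higher and 1 lower for the second.

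Of 41 genes of S phase and DNA replication, 3 were higher and 1 lower in KO embryos, and 8 higher and 3 lower in Sp2H embryos. The transcription factor gene E2f2 fell in KO embryos (-0.32, adjusted p = 1.5e-04) and Mcm7, of the replicative helicase, rose (0.15, adjusted p = 0.0238). E2f1 rose (0.33, adjusted p = 2.9e-04) and Mcm4 fell (-0.24, adjusted p = 0.00100) in Sp2H embryos. With length and GC offsets 10 of the 41 were higher and 1 lower in KO, and 5 higher and 1 lower in Sp2H embryos. The medians of the 41 were 0.031 and -0.015. Of 16 genes of G2 and mitosis, 2 were higher in KO embryos, Cenpf (0.19, adjusted p = 0.00273) and Bub1b (0.16, adjusted p = 0.0218), and none lower. In Sp2H embryos 1 was higher and 5 were lower, among them Cenpe (-0.26, adjusted p = 0.00128) and Bub1 (-0.24, adjusted p = 0.00225). Of 14 histone chaperone genes, 2 were higher and 1 lower in KO embryos, and 1 was higher in Sp2H embryos. Nasp, a chaperone of H1 and H3-H4, rose (0.20, adjusted p = 0.00195) and Asf1b, of H3-H4, fell (-0.28, adjusted p = 0.00932) in KO embryos, Nap1l1 was the second higher gene there (0.14, adjusted p = 0.0407), and Asf1a rose in Sp2H embryos (0.28, adjusted p = 0.00189). With length and GC offsets 6 chaperone genes were higher and 1 lower in KO, and 4 higher and 1 lower in Sp2H embryos.

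RNAs made without a poly(A) tail, mostly small nucleolar RNAs, were read for comparison with histone transcripts. In the Carm1 line 52 passed the filter and 1 was higher in KO embryos, Rpph1, the RNA of RNase P (0.86, adjusted p = 0.0320), a call that was lost with DESeq2, in the common fit of both lines, with the replicate block, and without KO replicate 2, KO replicate 3 or wild-type replicate 2. Snord96a had 0.41 (adjusted p = 0.0521). Of 58 tested in the Pax3 line, 9 were higher and 2 lower in Sp2H embryos, the smallest p values being those of Snord104 (2.31, adjusted p = 9.2e-11) and Snord52 (1.0, adjusted p = 1.2e-04). The share called was 1.92 percent in the Carm1 line, against 13.3% of all genes, and 19.0 percent in the Pax3 line, against 24.5%. The medians were 0.057 in the Carm1 line and 0.43 in the Pax3 line.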

How the data were processed

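RNA was measured in 12 whole embryos, 3 in each of 4 groups, with 1 library per embryo, and groups were taken from the sample labels. The authors sequenced polyadenylated RNA as paired reads, aligned them to mm10 with STAR and counted them on exons with featureCounts. Tool versions, the annotation, the strand setting and the handling of reads with several positions are not given in the sources used here. The deposited values are raw counts per gene, not normalized. Total counts per library ranged from 17183344 to 23518692.

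Here the counts were tested in each line with edgeR 4.0.16 (R 4.3.3) by its quasi-likelihood test with robust dispersions, after TMM scaling and filterByExpr, with Benjamini-Hochberg adjustment over all genes tested and a threshold of 0.05. The difference between lines was an interaction in a fit of all 12 libraries. The script was tested on simulated data. The members and the gene lists were chosen with earlier results of these data known. Genes named are members past the threshold, the 2 members with the highest mean CPM in each class, the polyadenylated members, in each further list the 2 genes with the smallest p in each line, and Carm1 and Pax3. Hist1h2ah, Hist1h2bj, Hist3h2bb-ps and the 7 members without counts fall outside this rule and were named after their values were seen. Of the list of Y-linked genes the count total alone is given.

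Alternatives were RLE and upper-quartile factors, DESeq2 1.42.0, no filter, a minimum of 10 counts in every library, a common fit of both lines, a block for the replicate number, a term for libraries with at least 100 Y-linked counts, offsets for length and GC content (splines with 5 degrees of freedom), and leaving out each library. For medians, members with a mean of at least 1 CPM were also used. After the data had been seen, 3 more were added: Rn45s left out of the counts, and in the Carm1 line a term for its level and a fit without the library richest in it in each group. Length and GC content were known for 21785 of 23420 genes. Replicates of a group correlated at 0.992 or more in log2 CPM, and no libraries were identical. Embryos are separate animals. An exact permutation test of 3 against 3 cannot give a p below 0.1, so tests of genes rest on the fit across genes. Stem-loops, coordinates and shared 150-base stretches were computed from GENCODE M21 transcripts, and promoters come from RefSeq.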

Additional observations from a re-analysis of the deposited data

Results flagged for a closer look

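For 8 histone genes the change in the Carm1 line differed from the change in the Pax3 line by the interaction test of edgeR with Benjamini-Hochberg adjustment. The difference in log2 fold change, Carm1 line minus Pax3 line, was -1.17 for Hist3h2ba, -0.60 for Hist3h2a, -0.66 for Hist1h1c, -0.75 for Hist1h2bc and -0.49 for Hist2h2be, each of which was lower in KO embryos. Adjusted p values of these 5 ranged from 3.1e-08 to 0.0213. Hist2h2be lost the call under 4 of 21 alternatives, without KO replicate 1 (0.0786), wild-type replicate 3 of the Carm1 line (0.0637), Sp2H replicate 1 (0.0527) and Sp2H replicate 3 (0.0753), with adjusted p values from 0.00888 to 0.0786 over all of them. For Hist1h4i the difference was -0.82 (adjusted p = 0.00717) and for Hist1h2ag -1.20 (adjusted p = 0.0382), both of which were higher in Sp2H embryos. Hist1h2ag lost the call under 9 of 20 alternatives, at adjusted p values up to 0.170: with length and GC offsets, and without KO replicate 1 or 2, Sp2H replicate 1 or 2, or wild-type replicate 1 or 3 of either line. For Hist1h4i it was lost under 1 of 21, with length and GC offsets, at 0.0730. For Hist2h4, lower in Sp2H embryos, the difference was 2.35 (adjusted p = 4.7e-04).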

How the results depend on the processing

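The number of histone genes called stayed between 5 and 8 in the Carm1 line (7 as reported) and between 6 and 8 for the difference between lines (8 as reported). In the Pax3 line, with 7 as reported, it was 4 with DESeq2, 4 with length and GC offsets, 4 where every library had to reach 10 counts, and 4 to 8 when 1 library was left out, the lowest without wild-type or Sp2H replicate 1. DESeq2 gave no adjusted p there for most of the 68 members, Hist1h2an and Hist2h4 among them. Its calls in that line therefore come from fewer members than those tested by edgeR. The minimum of 10 counts removed Hist1h2ag, Hist1h2an and Hist2h4 from the test. The cause of the other losses was not tested. With no filter, 8 and 9 members were called in the Carm1 and Pax3 lines. The median log2 fold change of the members ranged from -0.21 to 0.13 in the Carm1 line when 1 library was left out, and in the Pax3 line from 0.087 to 0.24, and was -0.049 with length and GC offsets.

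In the Carm1 line samples of the same number did not deviate together (correlations from -0.053 to -0.0016). In the Pax3 line their correlations were mixed, at 0.17, -0.079 and 0.25, against -0.36 to 0.24 for samples of different number. The numbers were not taken to pair the embryos. With the replicate number as a block, 6 members were called in the Carm1 line, Hist1h2ai being lost, 7 in the Pax3 line and 8 for the difference between lines, and the medians were 0.016 and 0.18.

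A change of sign occurred for genes that did not pass the test in that line, and the cause was not tested. The Carm1-line log2 fold change of Hist1h1e was -0.22 with the 2 libraries richest in Rn45s left out and -0.33 without KO replicate 3. That of Hist1h4b was -0.022 with the term for Y-linked counts and -0.14, -0.12 and -0.021 without KO replicate 3 and wild-type replicates 2 and 3, and that of Hist1h2be was 0.022 with that term and 0.022 without wild-type replicate 3. Leaving out 1 library at a time gave -0.33 to 0.35 for Hist1h1e, -0.14 to 0.33 for Hist1h4b and -0.46 to 0.022 for Hist1h2be there. For the Pax3 line length and GC offsets gave -0.15 for Hist3h2ba, -0.031 for Hist1h1c, -0.047 for Hist1h2bc, -0.0045 for Hist2h2be, -0.49 for Hist1h2ai and -0.22 for Hist1h3h. Leaving out 1 library at a time gave -0.20 to 0.52 for Hist1h2ai, which changed sign without Sp2H replicate 1 (-0.18) and wild-type replicates 1 (-0.20) and 2 (-0.096). Hist2h2be, near 0 as reported, was -0.0015 with DESeq2, -0.0020 with RLE factors, -0.0076 in the fit of all 12 libraries, and -0.032, -0.052, -0.017 and -0.0085 without Sp2H replicates 1 and 3 and wild-type replicates 1 and 3, in a range of -0.052 to 0.084.

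Counts for the other lists are given as ranges. In the Carm1 line they ranged over all alternatives from 1 to 4 of the 3′ end genes, 1 to 4 of the replication-independent histone genes, 1 to 11 of the S phase genes, 1 to 4 of the mitotic genes, 1 to 7 of the chaperones and 0 to 2 of the RNAs without a tail. In the Pax3 line they ranged from 3 to 12, 6 to 8, 4 to 15, 4 to 8, 1 to 5 and 6 to 15 in the same order, and 0 to 3 of the polyadenylated members. Depth limits most members, since 12 of the 68 reached 100 counts in a library of the Carm1 line and 6 in the Pax3 line.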

Other observations

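Outside the comparisons of genotypes, wild-type embryos of the 2 lines had different levels of many histone genes on a common scale of all 12 libraries. Of 36 members tested in both lines, 24 were higher in every wild-type embryo of the Carm1 line than in every wild-type embryo of the Pax3 line and none was lower in every one, against 25.4% of 15461 genes higher in every one. The median ratio of the means was 1.96 over the 36 members and 1.01 over all genes. Of the 28 members outside the polyadenylated list, 18 were higher in every embryo. The H4 gene Hist1h4i, for example, had 15.95, 15.3 and 15.1 CPM in wild-type embryos of the Carm1 line and 1.71, 3.01 and 2.45 CPM in those of the Pax3 line, scaled within each line, whereas Hist3h2a had 33.9, 37.3 and 37.8 and 27.6, 34.9 and 35.0 CPM. Rn45s was also higher in every wild-type embryo of the Carm1 line. The lines differ in strain and in the laboratory that kept the mice. These and any difference in the making of the libraries cannot be told apart here.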
